A study of Mus musculus with 6 samples.

Results

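Mgp-Dcn-high cancer cells are the barcodes of these tumours that carried transcripts of the cancer cells and in which Mgp and Dcn, 2 genes of the extracellular matrix, together reached a set share, for most of them through Mgp with no transcript of Dcn. A barcode was kept with at least 2000 UMIs (molecular tags that count each captured transcript once), more than 200 genes and under 10% mitochondrial UMIs. It was placed in the cancer gate with at least 1 UMI of Gm49504, at least 3 UMIs of Krt8, Krt18, Bmp4 and Sox4 together, at most 1 UMI of Ptprc, under 0.2% of its UMIs from C1qa, C1qb and C1qc, and under 1% from S100a8 and S100a9. A gated cell with Mgp and Dcn together at 0.1% of its UMIs or more was a member, and a gated cell under that threshold is called a low cell. There were 3871 members among 18495 gated cancer cells, or 20.9%, and among 42307 barcodes that passed the cell filter in the 4 libraries analysed.

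The tumours grew in the pancreas of C57BL/6 mice, 6 to 8 weeks old, for 4 weeks after injection of KPC cells, a mouse line from a pancreatic tumour of a genetic model that carries Pdx1-Cre and Trp53 R172H. The injected cells were labelled KPC-OE-MLKL, which carried an overexpression construct of Mlkl, the effector of necroptosis, or KPC-OE-Vector, which carried the empty vector. Both groups shared the KPC background, the host strain and the harvest time. The labels name 3 tumours per group, of which OE-Vector 1 and all 3 OE-MLKL tumours had a matrix that was analysed here.

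Matrix Gla protein, the product of Mgp, is a small secreted protein that is gamma-carboxylated with vitamin K as cofactor. It binds calcium, restrains calcification of soft tissue and binds bone morphogenetic proteins. Decorin, the product of Dcn, is a small leucine-rich proteoglycan that coats collagen fibrils and binds TGF-beta. In most organs fibroblasts and smooth muscle cells are the main sources of both, and epithelial cancer cells are not usually defined by them. In GRCm38 (GENCODE vM21), Mgp occupies chr6:136872435-136875823 (minus strand) and Dcn chr10:97479609-97518143 (plus strand).

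The 10 lowest genes named below included several of the cell cycle, and the liver-type secreted proteins Ahsg and Fetub, neighbours on chromosome 16, were among those that were higher. The 250 bases before the RefSeq start of 2 genes of each kind are therefore printed here (GRCm38.p6, 5′ to 3′ on the strand of the gene). Capitals mark the CCAAT box, a binding site of NF-Y known from promoters of cell cycle genes, read as CCAAT or, on the other strand, as ATTGG. Ahsg is at chr16:22891765-22892014 (plus), Fetub at chr16:22918132-22918381 (plus), Ccnb1 at chr13:100786487-100786736 (minus) and Ube2c at chr2:164769679-164769928 (plus).
Ahsg: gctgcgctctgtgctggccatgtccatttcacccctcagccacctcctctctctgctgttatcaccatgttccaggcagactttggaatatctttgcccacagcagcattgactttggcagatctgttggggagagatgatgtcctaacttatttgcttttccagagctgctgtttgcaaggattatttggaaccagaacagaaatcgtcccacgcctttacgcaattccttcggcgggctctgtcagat
Fetub: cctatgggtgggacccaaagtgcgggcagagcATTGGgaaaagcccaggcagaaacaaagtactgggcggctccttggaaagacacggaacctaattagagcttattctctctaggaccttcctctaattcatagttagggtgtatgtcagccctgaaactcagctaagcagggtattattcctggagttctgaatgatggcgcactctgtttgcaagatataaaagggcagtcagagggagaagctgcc
Ccnb1: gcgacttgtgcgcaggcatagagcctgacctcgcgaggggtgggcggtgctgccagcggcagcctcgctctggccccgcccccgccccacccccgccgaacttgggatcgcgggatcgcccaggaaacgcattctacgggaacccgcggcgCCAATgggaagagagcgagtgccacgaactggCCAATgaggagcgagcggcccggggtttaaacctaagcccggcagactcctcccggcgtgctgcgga
Ube2c: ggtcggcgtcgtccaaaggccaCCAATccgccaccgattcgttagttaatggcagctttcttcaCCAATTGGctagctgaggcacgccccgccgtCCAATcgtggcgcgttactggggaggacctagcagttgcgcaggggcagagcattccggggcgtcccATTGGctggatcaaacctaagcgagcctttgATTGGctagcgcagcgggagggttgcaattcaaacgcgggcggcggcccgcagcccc
GENCODE vM21 places the first transcript starts of Ahsg and Fetub further upstream than RefSeq, so that the whole Ahsg window and the end of the Fetub window lie within the GENCODE genes and other start sites were not searched. In these windows the Ahsg sequence held no CCAAT box, the Fetub window held 1, the Ccnb1 window 2 and the Ube2c window 6, of which 1 pair overlapped. Over all 27025 promoters of the RefSeq table, 34.5% held at least 1 in the same window. Among the 10 lower genes named below, 9 had an entry and 7 of these held a CCAAT box, and among the 15 higher genes 12 had an entry and 2 held one, Col1a2 and Fetub. Of the 19 genes of the proliferation list, 16 had an entry and 14 held a CCAAT box. The CHR element of cell cycle promoters, searched as TTTGAA on both strands, was in 1 of 9 of the lower genes, 2 of 12 of the higher genes, 8 of 16 of the proliferation list and 16.3% of all promoters. A match describes these letters only, and binding was not measured.

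Sets of 4 values are given in the order OE-Vector 1, OE-MLKL 1, OE-MLKL 2 and OE-MLKL 3. The 4 libraries held 150591289 to 169978362 UMIs each. Members had a median of 22264 UMIs in OE-Vector 1, 11639 in OE-MLKL 1, 11428.5 in OE-MLKL 2 and 18855 in OE-MLKL 3, below the 27030, 13033.5, 12895 and 21625 of the low cells of the same libraries. In barcodes of 100 UMIs or fewer, which hold free RNA, Mgp and Dcn made up 0.0254%, 0.0791%, 0.0407% and 0.0273% of UMIs in the same order, under the threshold in each library. The threshold was passed by 0.283% to 0.778% of the cells in a macrophage gate and by 0% to 0.82% of those in a neutrophil gate. It was passed by 89.7% to 99.2% of the 39 to 123 barcodes per library in a stromal gate, which had no UMI of Gm49504, at most 1 of Krt8 and Krt18, at least 10 of Col1a1, Col1a2 and Col3a1, and the same limits on immune genes as the cancer gate. Among the filtered barcodes 204 occurred in more than 1 library, and 49 members had such a barcode.

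Members were found in all 4 libraries, and their share ranged from 11.3% to 30.5% among the OE-MLKL tumours, against 8.95% in OE-Vector 1. They were 191 of 2134 gated cells in OE-Vector 1, or 8.95% (exact 95% binomial interval 7.77 to 10.2). In OE-MLKL 1 they were 2179 of 7133, or 30.5% (29.5 to 31.6), in OE-MLKL 2 they were 1210 of 6658, or 18.2% (17.3 to 19.1), and in OE-MLKL 3 they were 291 of 2570, or 11.3% (10.1 to 12.6). The intervals cover counting error only. The lowest share was that of the library labelled OE-Vector, and OE-MLKL 3 lay closer to it than to OE-MLKL 1.

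The libraries labelled OE-MLKL averaged 20.01% ± 9.74 (SD, n = 3), which was 11.1 percentage points above OE-Vector 1, with p = 0.5 by an exact two-sided permutation test that cannot go below 0.25 with 1 library against 3. A tumour difference and a label difference cannot be told apart with 1 OE-Vector library. At a threshold of 0.3% the OE-Vector share of 1.83% lay within the OE-MLKL range of 1.63% to 8.44%, the difference was 2.68 points and the exact permutation p was 0.75. After each gated cell was thinned to 2000 UMIs and the threshold was applied anew, the shares were 13.4%, 36.2%, 24.1% and 17.1%, in the same order of libraries. The order of shares was also the order of Mgp and Dcn in free RNA and, among the 4 libraries, OE-MLKL 1 and 2 had the lowest UMI medians. The part of free RNA and of depth in the shares was not tested.

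**Figure D1:**
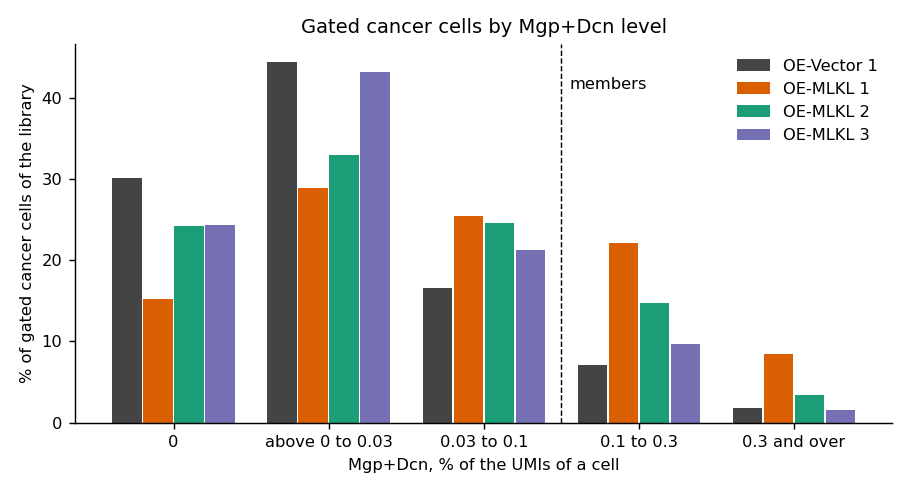
Share of gated cancer cells (y axis, % of the gated cells of each library) in 5 bins of Mgp and Dcn together (x axis, % of the UMIs of a cell), with 1 bar per library and a dashed line at the 0.1% threshold. In OE-MLKL 1 the bins from 0.1% to 0.3% and from 0.3% up held 22.1% and 8.44% of cells, against 7.12% and 1.83% in OE-Vector 1, and no gap separates members from low cells.

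The level of Mgp and Dcn was continuous across the threshold. The lowest member of each library had 0.1% to 0.101% of its UMIs from both genes, and the highest low cell had 0.0997% to 0.09997%. Between 0.1% and 0.12% there were 38, 297, 226 and 58 members in the 4 libraries, and between 0.08% and 0.1% there were 45, 374, 255 and 94 low cells. The median member had 0.172%, 0.204%, 0.179% and 0.169%, and the highest had 1.02% to 2.64%. Membership is therefore a range above a threshold, with many cells close to it on either side.

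Mgp and not Dcn carried most of the membership. Of the 3871 members, 3311 (85.5%) reached 0.1% with Mgp while Dcn stayed under it, 302 (7.80%) did so with Dcn alone, 119 (3.07%) with each gene, and 139 (3.59%) only with the sum. No UMI of Dcn was found in 2793 members, or 72.2%. As a description of the rule, Mgp stood at 1843, 2300, 1980 and 1705 CPM (the UMIs of a gene over all UMIs of the members of a library, on the usual CPM scale) in the 4 libraries, against 129, 258, 205 and 158 in low cells. Dcn stood at 414, 247, 268 and 407 CPM against 10.7, 26.6, 22.5 and 18.2. Low cells were thus below free RNA in Mgp, where it was at 193 to 680 CPM, and members were above it.

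Of the other marker genes given for these cells, Gas1 and Fmo2 were higher in members in each library and Gm49504 in 3 of 4. Gm49504, an unnamed gene model that is part of the gate, was at 191, 279, 249 and 196 CPM in members and 150, 286, 231 and 169 in low cells. Fmo2, a flavin-containing monooxygenase, was at 161, 384, 301 and 110 CPM against 132, 241, 244 and 105, higher in 4 of 4 libraries. Gas1, a membrane protein first found in growth-arrested cells and a hedgehog co-receptor, was at 656, 673, 618 and 807 CPM against 440, 489, 440 and 531, also higher in 4 of 4. Fmo2 and Gas1 are no part of the gate or the threshold and were given with the cells as markers. The values of these genes are a description, and no test is attached to them.

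The members that reached the threshold with Mgp and those that reached it with Dcn had different companions. In the 3311 members carried by Mgp, Col1a2, a chain of type I collagen, was at 3.26, 7.22, 20.7 and 14.2 CPM against 5.84, 5.28, 6.18 and 11.3 in low cells, lower in OE-Vector 1 and higher in the 3 OE-MLKL libraries. In the 421 members with Dcn at 0.1% or more it was at 2106, 503.8, 303.0 and 1693 CPM. Keratin 18, one of the genes of the cancer gate and so no independent check, was at 815, 595, 621 and 384 CPM in the members carried by Mgp and at 568, 443, 361 and 275 in those with Dcn alone.

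Transcripts of the Y chromosome followed the same split. Ddx3y, Eif2s3y, Kdm5d and Uty together were at 3.47, 3.15, 3.40 and 6.51 CPM in low cells and at 3.76, 2.86, 3.18 and 6.22 in members carried by Mgp. They were at 54.8, 5.96, 12.9 and 27.6 CPM in members with Dcn alone and at 44.7, 35.6, 49.8 and 51.5 in members with both genes. In the stromal gate they were at 156 to 227 CPM, in the macrophage gate at 150 to 192, and in free RNA at 34.7 to 68.4. The members with both genes therefore lay between the low cells and the stromal gate in every library, and the members carried by Mgp lay at the level of the low cells. The members with both genes were only 10, 82, 22 and 5 barcodes, so their levels rest on few cells. A Y-linked UMI was found in 13.6%, 3.99%, 4.96% and 13.7% of all members and in 9.37%, 4.10%, 4.59% and 13.7% of low cells. Whether the label of cancer cells holds for each barcode with Dcn was not tested, and the values with and without these barcodes are given below.

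**Figure D2:**
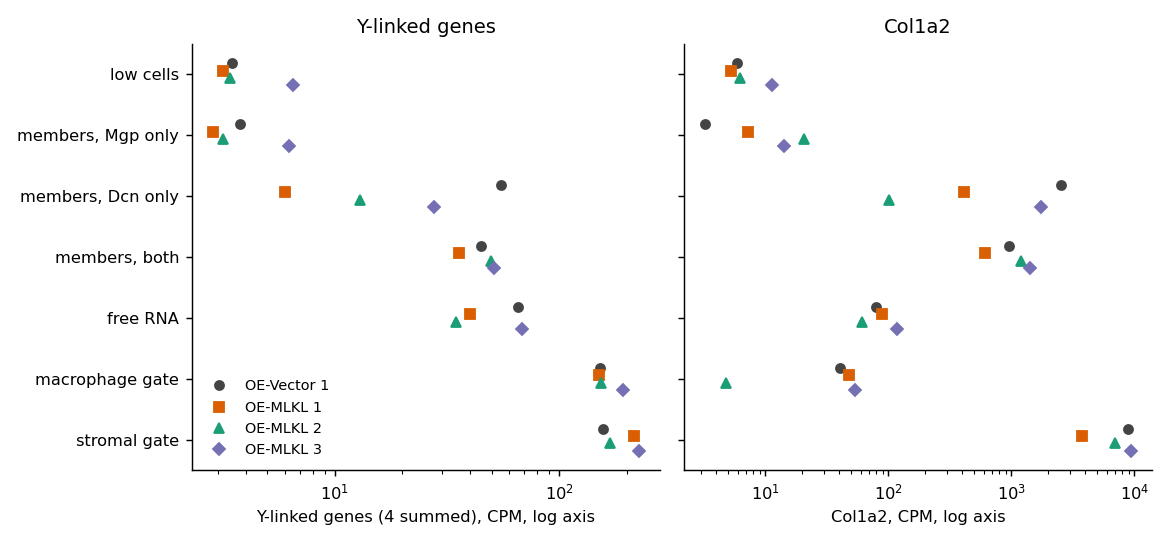
Levels of 4 Y-linked genes summed (left) and of Col1a2 (right), both in CPM on a log axis, in low cells, 3 kinds of members, free RNA and the macrophage and stromal gates, with 1 symbol per library. Members that reached 0.1% with Mgp alone lie with the low cells on both axes, except that Col1a2 is at 20.7 against 6.18 CPM in OE-MLKL 2, and members with both genes are at 613 to 1433 CPM of Col1a2.

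A few barcodes held much of the collagen. Members with at least 50 UMIs of Col1a1, Col1a2 and Col3a1 numbered 9, 14, 13 and 7 in the 4 libraries. They held 85.0%, 44.5%, 47.5% and 76.2% of the collagen UMIs of all members. In OE-Vector 1 and OE-MLKL 3 they thus held most of it, and in OE-MLKL 1 and 2 the other members held more.

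Genes outside the rule were compared between members and low cells over the 4 libraries, to ask what else went along with Mgp and Dcn. UMIs were summed per library over members and over low cells, and compared by edgeR (quasi-likelihood) with the library as a block and Benjamini-Hochberg adjustment at 0.05. Of 14623 genes, 936 (6.4%) were higher and 1141 (7.8%) were lower in members, and the median log2 fold change of all tested genes was -0.01. Since cells were sorted on Mgp and Dcn, any gene that varies with them from cell to cell had to differ, and the p-value says only how even a difference was over the 4 libraries. For the members carried by Mgp, 797 of 14507 genes (5.49%) were higher and 916 (6.31%) lower, of which 654 and 856 were shared with the calls for all members. For the members with Dcn at 0.1% or more, 798 of 14115 (5.65%) were higher and 1081 (7.66%) lower, with 366 and 687 shared. All 3 comparisons use the same low cells. Leaving out OE-MLKL 2 gave 489 higher and 528 lower for all members, and leaving out OE-MLKL 3 gave 701 and 579.

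The comparison was repeated in gated cells with no Y-linked UMI and in gated cells with at most 2 UMIs of the 3 collagens. With no Y-linked UMI, 6.17% of 14282 genes were higher and 7.49% lower, and with at most 2 collagen UMIs 5.22% of 13362 were higher and 6.27% lower. The proliferation median was -1.07 and -1.21 in these cells and the fibroblast median 0.52 and 0.31, the last in cells chosen by 3 genes of that list. Ahsg and Fetub passed in both, while Saa3 and Timp3 passed in neither. The collagen limit kept 973 of 2134, 5797 of 7133, 5090 of 6658 and 1090 of 2570 gated cells. More than 2 collagen UMIs were found in 48.7%, 17.1%, 22.6% and 58.1% of members and in 55.0%, 19.5%, 23.8% and 57.5% of low cells. The limit thus removed low cells about as often as members. It removed the largest share in OE-Vector 1 and OE-MLKL 3, which had the highest UMI medians. The part of depth and cell number in the calls lost with it was not tested.

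The 15 genes with the highest fold change, at 20 CPM or more on average, included 7 genes of the matrix and its regulators. The 7 were grouped from the 15 by function and are no list set beforehand, and no enrichment was tested. Of these 7, Fbln2 was called in the members carried by Mgp and the other 6 were not. Col1a2 was at 300.06, 47.1, 61.8 and 247 CPM in members against 5.84, 5.28, 6.18 and 11.3 in low cells. The log2 fold change was 4.14 with an SE of 0.32 and an edgeR adjusted p of 6.5e-05. In members carried by Mgp its log2 fold change was 0.78, with an adjusted p of 0.0611 by edgeR. Lum, the small leucine-rich proteoglycan lumican, was at 94.8, 21.1, 24.0 and 41.3 CPM against 2.83, 2.72, 3.98 and 4.34, a log2 fold change of 3.40 for all members and 0.18 for those carried by Mgp. The members of OE-Vector 1 were the highest in both. Col1a2, Lum, Saa3, Timp3, Fbln2 and Ttc9 averaged under 20 CPM in low cells and so met the level asked of named genes through the members, where they are high. Their folds and p-values describe genes chosen in this way and are no added support.

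The other matrix genes among the 15 were also higher in all members, with smaller log2 fold changes in the members carried by Mgp. Timp3, an inhibitor of metalloproteinases, had a log2 fold change of 1.91 in all members, Col1a1 1.47, Col3a1 1.24 and Igfbp4, which binds insulin-like growth factors, 1.09. In the members carried by Mgp these 4 were at 0.29, 0.10, -0.021 and 0.32 and none passed the test. Fbln2, the matrix glycoprotein fibulin 2, was at 1.05 in all members and 0.34 in those carried by Mgp and passed in both. In the members with Dcn at 0.1% or more the log2 fold changes of these genes were 3.01 to 4.31, and Col1a2 and Lum reached 6.89 and 6.29. The difference between the members carried by Mgp and those with Dcn was not tested.

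Ahsg and Fetub were among the 15 genes, for which 1 direction in every library was a condition of the choice. Ahsg (fetuin A), a secreted protein that keeps calcium phosphate in solution, was at 215, 144, 151 and 153 CPM in members against 105, 54.8, 79.6 and 81.3 in low cells. The difference was 1.05 on the log2 scale (SE 0.07, edgeR adjusted p 3e-05), and each member sum was above all 4 low sums. Fetub (fetuin B), a protease inhibitor of the same family, was at 218, 100.2, 183 and 232 CPM against 132, 46.8, 106 and 118, a log2 fold change of 0.87 ± 0.06 with the same adjusted p by edgeR. Its groups overlapped across libraries, since OE-MLKL 1 was low in both, but the member sum was 1.65 to 2.14 times the low sum within each library. Ahsg spans 22891277 to 22899449 and Fetub 22918334 to 22939778 on chromosome 16, on the same strand with 18884 bp between them.

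Both fetuin genes passed in the members carried by Mgp and neither passed in those with Dcn. In the members carried by Mgp the log2 fold change was 1.18 for Ahsg and 0.97 for Fetub, and both passed. Both genes were chosen from calls in all members, most of which are carried by Mgp, so passing there is no added support. In the members with Dcn at 0.1% or more it was -0.070 (adjusted p 0.887 by edgeR) and 0.20 (adjusted p 0.447 by edgeR). The libraries did not go one way there. Ahsg in these members was at 50.6, 85.1, 63.3 and 107 CPM, above the low cells in OE-MLKL 1 and 3 and below them in OE-Vector 1 and OE-MLKL 2. Fetub was at 87.8, 66.0, 151 and 169 CPM, above the low cells in all 3 OE-MLKL libraries and below them in OE-Vector 1, which held 31 such cells. The difference between the 2 kinds of members was not tested. The stromal gate held 5.003 to 13.8 CPM of Ahsg and 5.14 to 13.8 of Fetub, below the low cancer cells of every library. Free RNA held 42.7 to 70.3 CPM of Ahsg and 47.4 to 86.5 of Fetub.

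The remaining named genes that rose had mixed roles and, unlike most of the matrix genes, were called in the members carried by Mgp. They were chosen from calls in all members, of which those carried by Mgp are 85.5%. A call there is therefore no added support. F5, coagulation factor V, was at 124, 56.7, 75.7 and 211 CPM against 78.1, 26.5, 39.2 and 74.0, with a log2 fold change of 1.04 in all members and 1.10 in those carried by Mgp. Ecrg4, a secreted peptide precursor, had 0.93 and 1.02, Creb5, a leucine zipper transcription factor, 0.90 and 0.89, Ttc9 0.86 and 0.96, and the gene model Gm5678 1.17 and 1.12. In the members with Dcn at 0.1% or more Ecrg4 was at 0.44 (adjusted p 0.0553 by edgeR) and Ttc9 at -0.030, and neither passed, while Gm5678 (1.40), Creb5 (0.88) and F5 (0.64, adjusted p 0.0463 by edgeR) did.

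Saa3, an acute-phase serum amyloid A, was also higher in members. It was at 47.9, 65.8, 34.3 and 169 CPM in members against 12.9, 15.03, 14.6 and 25.4 in low cells, which gave 2.00 on the log2 scale (SE 0.18, edgeR adjusted p 0.000128). It was 1.005 with doublets removed, 0.47 with no Y-linked UMI (edgeR adjusted p 0.0599) and 0.27 with at most 2 collagen UMIs (edgeR adjusted p 0.404). It passed in the members carried by Mgp (1.40), where OE-Vector 1 was lower than its low cells at 9.77 CPM, and in those with Dcn at 0.1% or more (3.84). Saa3 was at 1458 to 3869 CPM in the stromal gate, 508 to 885 in the macrophage gate and 204 to 319.95 in free RNA, above the members in every library. The part of RNA from these sources in the difference was not tested.

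**Figure D3:**
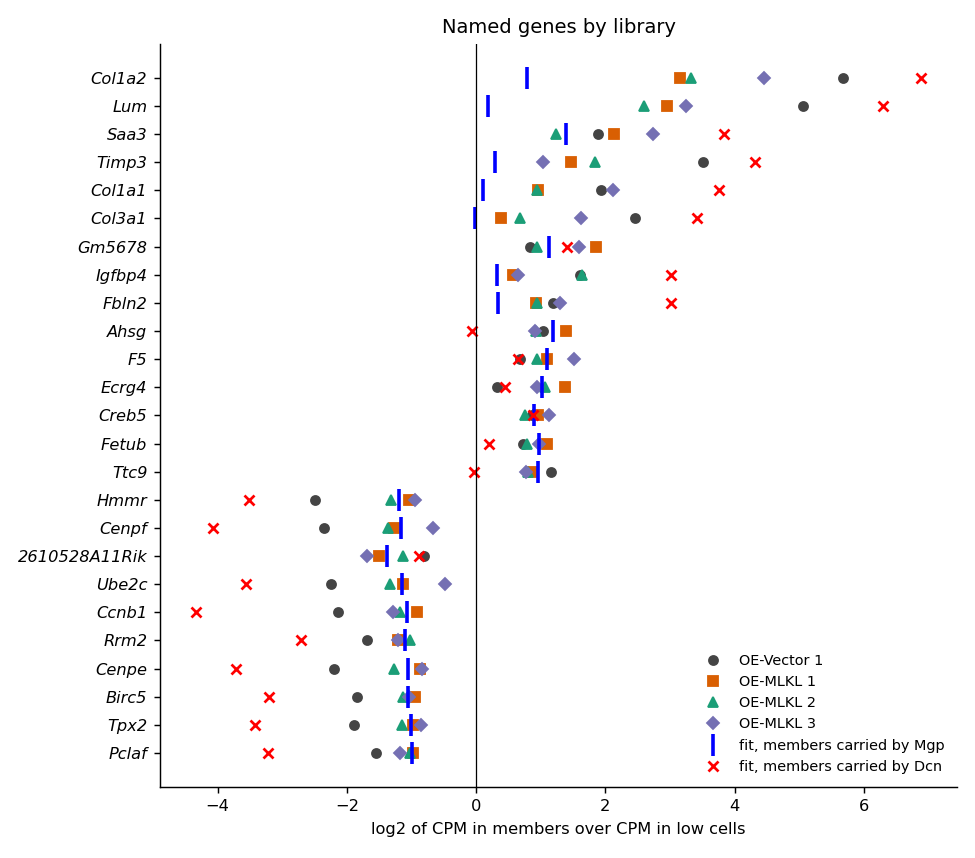
Difference between members and low cells (x axis, log2 of the CPM ratio) for the 15 highest and 10 lowest named genes, with 1 symbol per library, and the fitted log2 fold change of members carried by Mgp (blue bars) and of members with Dcn at 0.1% or more (red crosses). The matrix genes from Col1a2 to Igfbp4 lie at 3.02 to 6.89 for Dcn and at -0.021 to 0.78 for Mgp. The cell cycle genes lie left of 0 in all 4 libraries, which was a condition of their choice.

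Genes of cell division were lower in members of both kinds. Hmmr, a spindle-associated hyaluronan receptor, was at 11.1, 6.75, 12.7 and 19.96 CPM in members against 62.9, 13.9, 31.7 and 38.5 in low cells, which gave -1.38 on the log2 scale (SE 0.17, edgeR adjusted p 0.000481). Ccnb1, cyclin B1, was at 8.62, 10.7, 17.9 and 11.01 CPM against 38.1, 20.2, 40.7 and 26.8, and Ube2c, the ubiquitin-conjugating enzyme of the anaphase-promoting complex, at 34.5, 23.5, 40.3 and 42.3 against 164, 51.3, 102 and 58.9. Hmmr, Ccnb1 and Rrm2 averaged under 20 CPM in members and met the level asked of named genes through the low cells, so their folds and p-values are likewise a description. Every member sum of Ube2c was below every low sum. The drop was steepest in OE-Vector 1 for Hmmr, Ccnb1 and Ube2c, where members had 0.177 to 0.226 times the level of low cells.

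The other genes among the 10 lowest were Cenpf and Cenpe of the kinetochore, Birc5 (survivin), the spindle factor Tpx2, the ribonucleotide reductase subunit Rrm2, the PCNA-associated factor Pclaf, and 2610528A11Rik. Their log2 fold changes were -1.35 to -1.17 in all members. For all of the 10 genes, the same direction in every library was a condition of the choice. In the members carried by Mgp the 10 genes were at -1.38 to -0.99, in those with Dcn at 0.1% or more at -4.33 to -0.88, and all 10 passed the test in both. The 2 sets of members share their low cells, and only the 5 proliferation list genes among the 10 come from a list chosen for this function. The 10 were chosen from calls in all members, most of which are carried by Mgp, so passing there is no added support.

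The proliferation list gave the same direction gene by gene. Of its 19 genes 18 were lower and none was higher, with a median log2 fold change of -1.13 against -0.01 for all tested genes. Tyms, thymidylate synthase, was the exception, at -0.20 with an adjusted p of 0.0607 by edgeR. The summed list was at 778 to 1020 CPM in members and 1115 to 1938 in low cells, without overlap. Mki67, the proliferation antigen Ki-67, was at 28.2, 19.9, 45.8 and 78.1 CPM against 107, 36.1, 114 and 124, and Top2a, topoisomerase II alpha, at 143, 72.6, 133 and 215 against 363, 112, 280.5 and 342. The list had 18 of 19 lower and a median of -0.96 in members carried by Mgp, and 19 of 19 lower and a median of -2.90 in those with Dcn at 0.1% or more. Its sum was at 512, 461, 447 and 665 CPM in members with Dcn alone and at 742, 382, 544 and 300 in the stromal gate, also below the low cells. The part of stromal RNA in the drop of members with Dcn was not tested.

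The differences in proliferation and in Ahsg were also seen with counts thinned to equal depth. Members were still those set on the full counts, and the part of depth in membership was not tested. With each cell thinned to 2000 UMIs, a UMI of Mki67 was found in 2.62%, 1.74%, 4.46% and 6.19% of members and in 9.83%, 3.31%, 8.41% and 9.08% of low cells. Unthinned, the shares were 14.1%, 6.98%, 13.0% and 18.6% of members and 32.5%, 11.5%, 23.7% and 30.8% of low cells. Ahsg went the other way, with a UMI in 27.2%, 19.6%, 21.0% and 18.6% of thinned members and 16.5%, 9.29%, 13.1% and 13.8% of thinned low cells. Members were lower than low cells in Mki67 and higher in Ahsg in 4 of 4 libraries, where for Ahsg the same direction was a condition of its choice.

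Proliferation and the fetuins also differed between bins below and above the threshold, though not step by step in every library. The proliferation list was highest in cells with some Mgp or Dcn but under 0.03%, except in OE-MLKL 3. That bin can hold only deeper cells and had the highest median UMIs in each library (29969, 14152.5, 14502 and 22820). The part of depth in this peak was not tested. From 2187, 1231, 2089 and 1540 CPM in that bin the list fell to 441, 687, 843 and 436 at 0.3% and over. In OE-MLKL 3 the list was at 961 CPM between 0.03% and 0.1% and at 1010 between 0.1% and 0.3%. Ahsg and Fetub together rose from 174, 53.5, 124 and 121 CPM in cells without Mgp or Dcn to 388, 285, 357 and 453 at 0.3% and over. They were already at 415, 157, 256 and 326 between 0.03% and 0.1%. In OE-Vector 1 they were at 443 CPM between 0.1% and 0.3%, above the level at 0.3% and over. The top bin had 39, 602, 230 and 42 cells. In that bin Y-linked transcripts were at 35.9, 8.24, 7.04 and 12.4 CPM, above every lower bin of the same library.

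**Figure D4:**
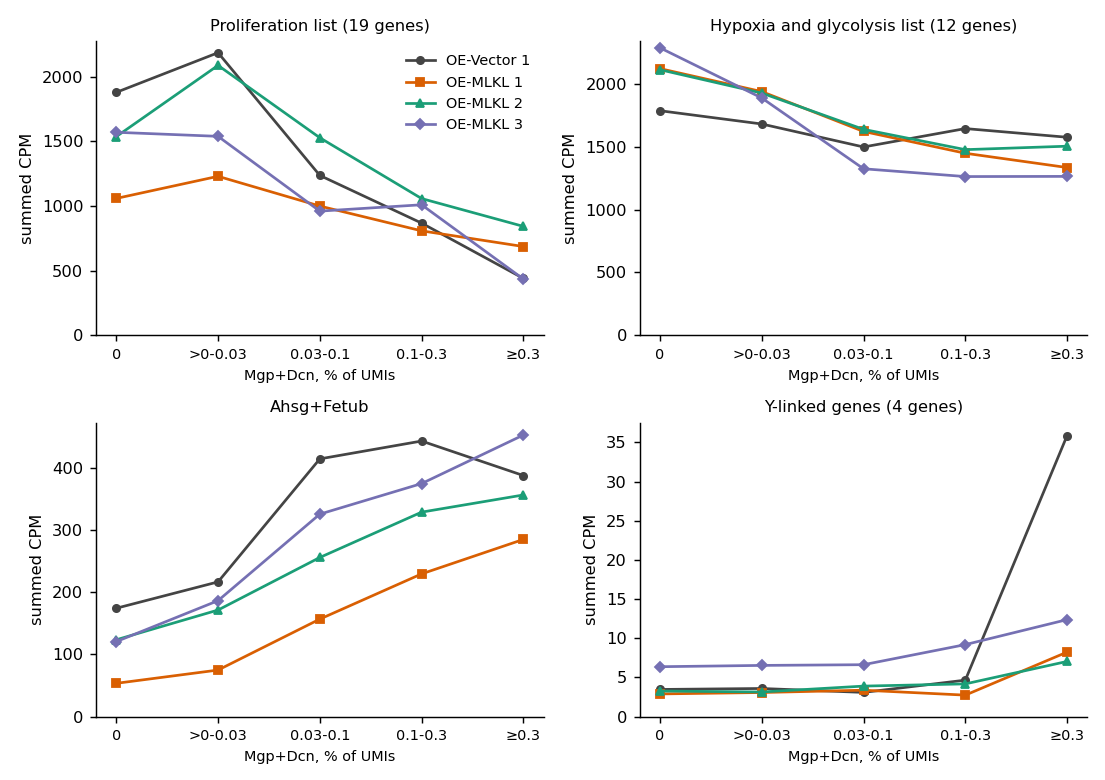
Summed CPM (y axes) of the proliferation list, the hypoxia and glycolysis list, Ahsg with Fetub, and 4 Y-linked genes in gated cancer cells binned by Mgp and Dcn (x axes, % of UMIs), with 1 line per library. Proliferation falls and the fetuins rise before the 0.1% threshold, while the Y-linked genes rise mainly in the top bin, to 35.9 CPM in OE-Vector 1.

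The genes that share a function with Mgp and Dcn were then read list by list. Over all genes 6.4% were higher and 7.8% lower in all members, and 5.49% and 6.31% in those carried by Mgp. In those with Dcn at 0.1% or more the shares were 5.65% and 7.66%. The counts below are to be read beside these shares. A gene could pass the level filter through members or low cells alone, so the counts are a description. Of 12 small leucine-rich proteoglycans, 8 besides Dcn were tested, and 6 were higher and none lower, with a median of 0.74. Biglycan (Bgn), the closest relative of decorin, was at 299.8, 225, 325 and 481 CPM in members against 225, 108, 183 and 239, a log2 fold change of 0.81 in all members and 0.77 in those carried by Mgp. Prelp, which anchors basement membranes, had 0.40 and 0.38, and Fmod, fibromodulin, 0.39 in both. Bgn, Prelp, Fmod and Podn passed in both sets of members, while Lum and Omd passed among all members and had adjusted p-values of 0.572 and 0.0762 by edgeR in those carried by Mgp.

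Of 8 genes for gamma-carboxylation and mineralisation, 7 were tested, of which 4 were higher and 1 lower. Ank, which exports pyrophosphate and citrate, had a log2 fold change of 0.51, Enpp1, which makes pyrophosphate, 0.36, and Spp1, the secreted phosphoprotein osteopontin, 0.26. Gas6, another gamma-carboxylated protein, had 1.97 in all members, 0.71 in those carried by Mgp and 4.43 in those with Dcn at 0.1% or more. Alpl, the alkaline phosphatase that splits pyrophosphate, was lower at -0.54. The carboxylase Ggcx was at 0.28 and the vitamin K reductase Vkorc1 at -0.03, and neither passed.

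In BMP signalling, which matrix Gla protein can bind, 3 of 15 tested genes were higher and none was lower. They were Fstl1 at 2.29, Id3, a target of the pathway, at 0.32, and Twsg1, an extracellular modulator, at 0.19. In the members carried by Mgp only Twsg1 passed, 1 of 14 tested, near the 5.49% of all genes that were higher there. Of 15 tested in the members with Dcn at 0.1% or more, 2 were higher and 2 lower. In TGF-beta signalling, whose ligand decorin can bind, 6 of 14 genes were higher and none was lower. Ccn2, the matricellular factor CTGF, was at 71.7, 134, 139 and 112 CPM in members against 43.3, 76.5, 86.2 and 63.7, which gave 0.73 on the log2 scale (SE 0.04, edgeR adjusted p 1.7e-05). Thbs1, thrombospondin 1, had 0.56, the ligands Tgfb3 and Tgfb1 0.32 and 0.30, and the co-receptor Tgfbr3 0.32. These 5 also passed in the members carried by Mgp, where Tgfbi was lower at -0.33. In the members with Dcn at 0.1% or more 5 of 14 genes were higher and 2 lower, with a median of 0.085.

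Fibroblast markers were higher among all members, and the count changed with the kind of member. Of 17 tested markers 14 were higher, with a median of 1.24. Markers nearly absent from low cells could pass the level filter through the members, so these counts are a description. With at most 2 collagen UMIs, a limit on 3 genes of the list, 14 were tested. Of those, 6 were higher and 1 lower. In the members carried by Mgp 6 of 17 were higher and 1 lower with a median of 0.31, and in those with Dcn at 0.1% or more 15 of 18 were higher and 1 lower with a median of 3.59. The 6 in the members carried by Mgp were Pdgfra (0.68) and Pdgfrb (0.60), the receptors of platelet-derived growth factor, Fbln1 (0.80), Mfap5 (1.18), Pi16 (0.63) and Col5a1 (0.15), and Col6a3 was lower (-0.94). Postn, periostin, was at 0.251, 0.0752, 0.433 and 0.643 CPM in the members carried by Mgp. It was at 170, 3.74, 14.1 and 29.8 in those with Dcn at 0.1% or more and at 0.344, 0.0523, 0.217 and 0.145 in low cells. The summed fibroblast list was at 642 to 1993 CPM in members, 415 to 931 in low cells and 10926 to 36811 in the stromal gate.

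Other lists that reach across cell types had fewer genes higher in the members carried by Mgp than in all members. The first set is part of the second, both share their low cells, and the difference in counts was not tested. For complement 7 of 8 tested genes were higher among all members, 3 of 8 in those carried by Mgp, where C3 had 0.27, C4b 0.48 and C1s1 0.33, and 8 of 9 in those with Dcn at 0.1% or more. For insulin-like growth factors and their binding proteins the counts were 7 of 10, 4 of 10 and 5 of 10, and Igfbp7 rose by 0.45 and 0.51 in the first 2. For collagens 9 of 12 were higher and 2 lower among all members, 4 and 2 of 12 in those carried by Mgp, and 5 and 1 of 12 in those with Dcn at 0.1% or more. The 4 in those carried by Mgp were the basement membrane chains Col4a1 (0.27), Col4a2 (0.29) and Col18a1 (0.42) and the fibril-forming Col5a1 (0.15). Of 8 mesothelial markers 5 were tested, some of which reached the level filter through a few members only, so that their direction is no finding. The summed mesothelial list was 4.36 times the low cells in OE-Vector 1 but 0.621, 0.909 and 0.851 times in the OE-MLKL libraries. With doublets removed 3 markers were tested, of which 1 was higher and 1 lower.

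**Figure D5:**
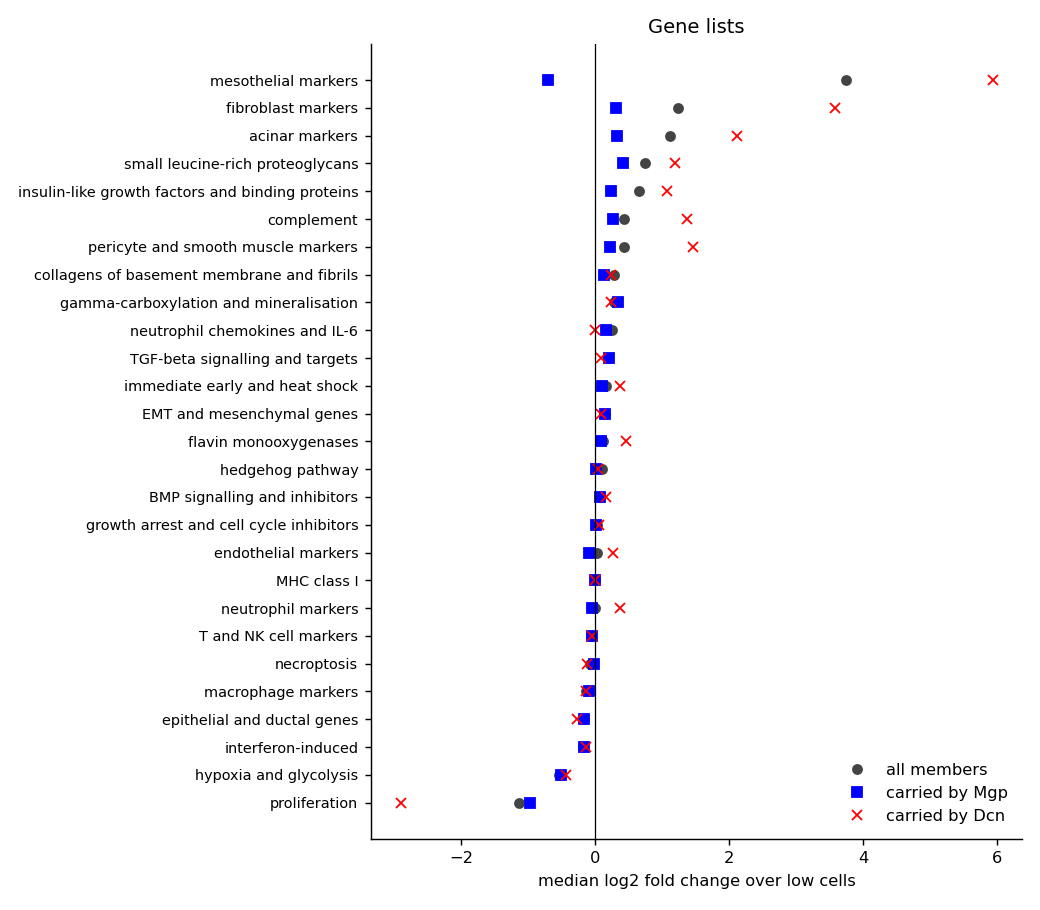
Median log2 fold change over low cells (x axis) of the tested genes of 27 lists for all members (circles), members carried by Mgp (squares) and members with Dcn at 0.1% or more (crosses). The proliferation list is the lowest in each, and the fibroblast list is at 3.59 for members with Dcn and 0.31 for those carried by Mgp. The mesothelial medians rest on 5 and 3 tested genes.

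Of 12 hypoxia and glycolysis genes 6 were lower in members, none was higher and 6 did not pass, with a median of -0.53, and 8 of 12 were lower in the members carried by Mgp. Car9, carbonic anhydrase 9, was at 1.26, 3.51, 2.12 and 2.92 CPM against 3.47, 10.5, 7.86 and 15.5, which gave -1.84 on the log2 scale (edgeR adjusted p 5.5e-05). Ankrd37 was at -1.01, Egln3, the oxygen-sensing prolyl hydroxylase 3, at -0.85, Bnip3 at -0.76, Pgk1 at -0.70 and Ldha at -0.37. The fold of the summed list was 0.766, 0.786 and 0.676 in OE-MLKL 1, 2 and 3 and 0.970 in OE-Vector 1, where Bnip3 and Egln3 were not below the low cells.

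Few epithelial genes passed the test. Of 17 tested 2 were lower and none was higher, with a median of -0.17. The summed list was 1.02, 0.967, 0.959 and 0.808 times the low cells. With no Y-linked UMI 4 of 17 were lower. With at most 2 collagen UMIs 4 of 15 were lower, with a median of -0.34. Krt19, keratin 19 of ductal cells, was at 9.67, 4.08, 9.12 and 9.29 CPM against 19.6, 9.37, 24.2 and 33.5, a log2 fold change of -1.41, and Krt7 had -0.40. The Krt19 levels of members were under the 17.9 to 37.7 CPM of free RNA. Among genes of epithelial-mesenchymal transition 8 of 14 were higher, led by Twist1 (2.98), Mmp2 (2.79), Prrx1 (1.97) and Cdh2 (1.70), and Vim was lower at -0.15. In the members carried by Mgp 4 of 13 were higher, at 0.16 to 0.23, namely Fn1, Itgb1, Mmp14 and S100a4.

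Interferon-induced genes were lower in 5 of 12, namely Rsad2 (-1.09), Isg15 (-0.40), Irf7 (-0.31), Ifit1 (-0.27) and Bst2 (-0.25), with a median of -0.18. The summed list was 1.02, 0.841, 1.01 and 0.998 times the low cells, and by edgeR 1 of 12 was lower after thinning, with a median of -0.25, and none at a threshold of 0.3%, with a median of -0.10. Immediate early and heat shock genes were higher in 6 of 12, Hspb1 at 3.49 and Junb, Fos, Ier2, Egr1 and Fosb at 0.16 to 0.30. The median of the list was 0.16, and its sum was 1.15, 1.16, 1.15 and 1.23 times the low cells. With at most 2 collagen UMIs 5 of 11 tested genes were higher. In the members carried by Mgp 6 of 12 were higher, with a median of 0.11. The digestion of the tumours took 30 minutes, and the part of digestion in these genes was not tested. Of 6 necroptosis genes none passed. Mlkl was at 16.0, 7.89, 12.6 and 18.8 CPM in members and 16.0, 8.59, 12.7 and 19.3 in low cells.

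Few markers of immune and vessel cells passed the test. Of 8 tested macrophage markers 1 was lower, Lyz2 at -0.13, and of 7 neutrophil, 8 T and NK cell and 9 endothelial markers none passed. The summed macrophage list was at 409 to 755 CPM in members and 444 to 796 in low cells. Of 10 tested acinar markers none passed, although the sum was 115 CPM in members of OE-Vector 1 against 14.9 in its low cells. Pericyte and smooth muscle markers were higher in 3 of 7, Des at 1.92, Abcc9 at 0.70 and Notch3 at 0.38, and of these Notch3 passed in the members carried by Mgp. Of the 4 tested Y-linked genes none passed among all members, and all 4 were higher in those with Dcn at 0.1% or more.

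Members of the libraries labelled OE-MLKL were last compared with those of OE-Vector 1. Mlkl, the overexpressed gene, was at 16.0 CPM in the members of the library labelled OE-Vector and averaged 13.1 ± 5.45 (SD, n = 3) over the libraries labelled OE-MLKL, which was a difference of -0.43 on the log2 scale (SE 0.44, edgeR adjusted p 0.944). The level did not follow the label, and whether the 3′ tags count the construct was not established. Of 13612 genes tested with edgeR, 0 (0.0%) were higher and 1 (0.00735%) was lower, 806 had an unadjusted p under 0.05, and DESeq2 gave 8 higher and 59 lower. Only the OE-MLKL libraries inform the spread here, with 2 residual degrees of freedom, and without OE-MLKL 3 the counts were 199 higher and 549 lower.

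The gene called was Defa24, a defensin of Paneth cells, which lies outside the rule for named genes and was looked at after its values were seen. It had 88 UMIs in the members of OE-Vector 1 and 3, 2 and 1 in those of OE-MLKL 1, 2 and 3, with a log2 fold change of -7.24 and an adjusted p of 0.0249 by edgeR. All 88 UMIs came from 1 of the 191 members, so the call rests on 1 barcode. Among the 25 highest and lowest genes named above none passed in this comparison, with adjusted p-values of 0.247 to 0.999 by edgeR.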

How the data were processed

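Raw UMI counts, with no normalisation and for all barcodes, were deposited by the authors from droplet-based 3′ single-cell RNA sequencing of dissociated tumours (10x chemistry version 2 per the labels, mm10). Cell Ranger 7.1.0 stands in the file headers and 2.1.1 in the submitters' processing notes. The counting of intronic reads is not given in the sources used here. Of 32285 genes, 32158 were found in GENCODE vM21. The 3′ counts allow no comparison of levels between genes. For 2 of the 6 samples, OE-Vector 2 and 3, only the barcode and gene lists were read.

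The members, gene lists and tests were chosen with earlier results of these data known. Groups came from the sample labels. UMIs were summed per library over members and over low cells, the tumour being the replicate, and tested with edgeR 4.0.16 (TMM, filterByExpr, quasi-likelihood test, Benjamini-Hochberg at 0.05) in R 4.3.3. Genes of the rule and the markers Fmo2 and Gas1 were left out of counts of calls. The study's methods give 3 tumours per group, and the p-values measure the spread between libraries, 1 per tumour. Shares were compared by exact permutation (scipy 1.17.1). Named genes were the rule genes, the 15 highest and 10 lowest called genes with a mean of at least 20 CPM and 1 direction in every library, and, from each described list, the 4 most abundant members and any that passed.

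Alternatives were thresholds of 0.05% and 0.3%, a minimum of 5000 UMIs, doublet removal by simulated neighbours at 0.8% per 1000 cells (12.3% to 18.4% of the barcodes scored), shared barcodes removed, Mgp or Dcn alone at 0.05%, DESeq2 1.42.0 and its size factors, no filter and a mean of 20 UMIs, no library block, and leaving out each library. Doublets were otherwise kept. Removal of cells with Y-linked UMIs or over 2 collagen UMIs, thinning to 2000 UMIs, and the split into members carried by Mgp and with Dcn were added after seeing the data. The tests were tried on simulated counts first. Promoter windows are from RefSeq. A gene of the TGF-beta list and an allele of the model are not reported here.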

Additional observations from a re-analysis of the deposited data

Results flagged for a closer look

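The barcode lists of OE-Vector 2 and OE-Vector 3, whose counts were not analysed here, held more of the member barcodes than of barcodes in general. Each of the 2 lists held 3867 of the 3867 distinct member barcodes of the other 4 libraries, or 100%. Of all barcodes of those libraries, the list of OE-Vector 2 held 57.7% to 65.9% and that of OE-Vector 3 held 62.3% to 64.4%. These were 2295176 to 2991965 barcodes per library, of which only 16854 to 24574 had 500 UMIs or more. Low cells and other barcodes of like depth were not looked up. Whether the 100% is particular to members was therefore not tested. The cause was not tested.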

How the results depend on the processing

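The share difference kept its direction under every alternative, at 1.55 to 15.4 percentage points with exact permutation p-values of 0.5 to 0.75, and without each OE-MLKL library at 5.80 to 15.4 points.

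For all members against low cells, the genes higher were 1434 at a threshold of 0.05%, 589 at 0.3%, 273 after thinning to 2000 UMIs and 12 with no library block, and 489 to 977 without 1 library, the lowest without OE-MLKL 2. The genes lower were 484 at 0.3%, 274 after thinning, 1907 with no filter, 0 with no library block and 528 to 1024 without 1 library, the lowest without OE-MLKL 2 (579 without OE-MLKL 3). With no library block 663 genes had an unadjusted p under 0.05 by edgeR.

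For OE-MLKL against OE-Vector within members, the genes higher were 8 by DESeq2 and 4 with no filter, and 3 to 199 without 1 library. The genes lower were 0 at 0.05%, after removal of doublets and with Mgp alone (803, 736 and 782 at an unadjusted edgeR p under 0.05), 40 at 0.3%, 11 with Dcn alone, 59 by DESeq2, 64 with no filter, and 27 to 549 without 1 library, the highest of both without OE-MLKL 3.

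The proliferation median was -1.66 at 0.3%, -1.68 with Dcn alone and -2.90 in the members with Dcn at 0.1% or more. The fibroblast median was 0.31 with at most 2 collagen UMIs (a limit on 3 genes of the list itself), 0.52 with no Y-linked UMI, 3.06 with Dcn alone, 0.31 in the members carried by Mgp and 3.59 in those with Dcn at 0.1% or more. Timp3 turned to -0.16 with at most 2 collagen UMIs, Col3a1 to -0.021 in members carried by Mgp, Ahsg to -0.21 and -0.070 and Ttc9 to -0.17 and -0.030 with Dcn alone and in members with Dcn at 0.1% or more. The cause was not tested.

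Over 21 alternatives, the 15 higher genes gave 315 values, of which 279 stayed called, 30 lost the call (13 with no library block) and 6 reversed. The 10 lower genes gave 210 values, of which 10 lost the call, all with no library block. These genes were chosen because they were called in the main setting, and the alternatives reuse the same libraries. Some of them met the level asked through 1 group only. The tallies are therefore a description and no added support. Members and low cells were paired by library throughout, except with no library block. No paired analysis was possible because OE-MLKL and OE-Vector share only replicate 1 among the libraries analysed, which concerns that comparison alone. The replicate numbers are those of the sample labels. Neither the labels nor the study's methods state that tumours with the same number were matched, so a shared number is no known pairing. At the 2000 UMIs required, 0.1% is 2 UMIs. A minimum of 5000 UMIs gave 942 genes higher and 1163 lower.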
